A study of Mus musculus with 4 samples.

Results

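C1q-positive macrophages were the barcodes of 4 tumour libraries that held at least 5 unique molecular identifiers (UMIs) of C1qa, C1qb and C1qc together. They also held under 10 UMIs of the pigment genes Pmel, Mlana, Tyrp1 and Dct, and no UMI of Cd3d, Cd3e, Cd3g or Siglech. Of 9461 barcodes that passed the cell filter (300 genes or more, 500 UMIs or more, no more than 20% of UMIs mitochondrial), 139 were C1q-positive macrophages (1.47%). There were 71 in the aPD-1 library, 34 in the D+F library, 21 in the D+F+P library and 13 in the control library.

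C1q is the recognition molecule of the classical complement pathway, built from the products of 3 neighbouring genes. In most tissues it is made by macrophages, where it also bridges dying cells to the phagocyte. Tumour macrophages that express C1q are a recurrent population in mouse and human tumours. They are known for uptake of dead cells, lysosomal digestion, presentation of antigen on MHC class II, and chemokine release, and they derive in part from monocytes that enter the tumour.

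The libraries came from tumours of B16F10, a mouse melanoma line that responds poorly to checkpoint blockade. Mice received a PD-1 blocking antibody (aPD-1), the DNA-damaging drug doxorubicin together with the ROCK kinase inhibitor fasudil (D+F), all 3 agents (D+F+P), or were labelled control, with no vehicle, dose or day named. The study asked what the 3 agents together do to the tumour microenvironment. Dissociated tumours were freed of red cells, debris and dead cells, were not sorted, and gave 1 library of 5′ single-cell RNA per group; the number of mice per library is not in the labels. With 1 library per group no comparison between treatments has a replicate check or a p-value. Every interval given is an exact 95% one for counting error alone.

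The macrophages held 330088, 166395, 103457 and 62336 UMIs in the aPD-1, D+F, D+F+P and control libraries, with medians of 3698, 4559, 3869 and 3663 UMIs per cell. The median over all barcodes of the D+F+P library was 1876 UMIs, against 9589, 12887.5 and 16162.5 in the aPD-1, D+F and control libraries, so that library stood apart in depth while its macrophages did not. Among the members, 12 had under 1000 UMIs and 33 had under 10% ribosomal protein UMIs. Across libraries 69 pairs of barcodes had the same sequence, and no 2 of those were both macrophages.

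The label was checked on markers that the rule did not use. Ms4a7, a membrane protein of mature macrophages, had at least 1 UMI in 95 of 139 macrophages, and Adgre1, which encodes the macrophage antigen F4/80, in 64. After thinning to 1000 UMIs per cell, Ms4a7 was found in 41.7% of 127 macrophages (95% interval 33.0 to 50.8%), against 0.142% of 1413 lymphocyte barcodes, which should lack it (unthinned, 68.3% and 0.188%). Csf1r, Fcgr1 and Cd68 were detected in the macrophages of all 4 libraries, but Mertk had 0 UMIs in D+F+P and Cx3cr1 had 0 in D+F and D+F+P. Among 13 genes listed for resident-type (long-lived tissue) macrophages, Cd163, Lyve1 and Timd4 had 0 UMIs in all libraries. That allows up to 9.09, 18.03, 28.998 and 48.1 CPM (a gene's share of all gene UMIs on the usual scale) in the aPD-1, D+F, D+F+P and control libraries. Other genes of that list were found, 9, 10, 7 and 9 of them in the same order. The list summed to 3657, 4778, 3557 and 3658 CPM. The chemokine gene Ccl8 gave 852, 583, 309 and 117 of its 1207, 795, 368 and 228 UMIs. A list of 16 macrophage identity genes summed to 17768, 18805, 20221 and 14695 CPM in aPD-1, D+F, D+F+P and control macrophages. It stood higher in the C1q-low myeloid barcodes described below, at 25155, 29482, 25334.5 and 25404.5 CPM. Of 10 genes of that list tested between these classes, 5 rose in the macrophages and 1, Cd14, fell.

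Many genes that define other cell types were at 0. Flt3, Kit and Itgae of the dendritic cell list, the NK genes Ncr1, Klrb1c and Klre1, the B cell genes Cd79a and Ms4a1, and all 6 red cell genes listed had 0 UMIs in every library. No macrophage held 5 UMIs of the neutrophil, T cell or NK lists, and 1 aPD-1 cell each held 5 or more of the B cell and endothelial lists. The dendritic cell list was detected, with 8, 5, 3 and 3 of its 12 genes in aPD-1, D+F, D+F+P and control, and 4, 3, 6 and 1 cells held 5 or more of its UMIs. The melanoma list, of which the rule capped 4 genes, summed to 488, 757, 483 and 882 CPM in aPD-1, D+F, D+F+P and control macrophages. The summed fibroblast list stood at 1512, 12.02, 86.99 and 2342 CPM in aPD-1, D+F, D+F+P and control macrophages, with 2 aPD-1 cells and 1 control cell holding 5 UMIs or more. One cell held 82.97% of the fibroblast UMIs in aPD-1 and 1 cell held 98.6% in control, so the medians of the matrix list are given with and without those 3 cells.

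The C1q values that chose the members are a description only. C1qb stood at 6492, 6821, 4040.3 and 5309.9 CPM in the aPD-1, D+F, D+F+P and control macrophages. The 3 genes lie together on chromosome 4 of GRCm38, between 136880129 (C1qb) and 136898803 (C1qa). Just inside the threshold, the 20 macrophages with 5 to 9 C1q UMIs had 120.1 CPM of Ms4a7 and 661 CPM of the monocyte gene Ly6c2. Just outside it, 54 barcodes with 1 to 4 C1q UMIs had 79.5 CPM of Ms4a7 and 669 CPM of Ly6c2. The 61 macrophages with 50 or more C1q UMIs had 948 CPM of Ms4a7 and 73.1 CPM of Ly6c2. The 58 between them, with 10 to 49 C1q UMIs, had 498 CPM of Ms4a7 and 744 CPM of Ly6c2. Other genes differed across the threshold: Ctsb stood at 4725 CPM just inside and 2013 CPM just outside it, and H2-Aa at 1502 CPM just inside and 3046 CPM just outside.

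How common the macrophages were depended on what they were counted against. Of all filtered barcodes they made up 3.17% (2.48 to 3.98%) in the aPD-1 library, 1.37% (0.947 to 1.90%) in the D+F library, 0.859% (0.532 to 1.31%) in the D+F+P library and 0.569% (0.303 to 0.970%) in the control library. The aPD-1 interval lay clear of the control interval, while those of D+F and of D+F+P each overlapped it. Of barcodes with under 10 pigment gene UMIs, which leaves out melanoma cells, the shares were 6.29%, 4.46%, 1.10% and 3.74% in the aPD-1, D+F, D+F+P and control libraries. On this count the D+F+P library was lowest, with an interval of 0.682 to 1.68% against 2.004 to 6.30% in control. The D+F+P library held 765 lymphocyte barcodes, against 480, 302 and 45 in the aPD-1, D+F and control libraries, which adds to that denominator. Fewer macrophages and more of other cells cannot be told apart in shares of barcodes.

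**Figure D1:**
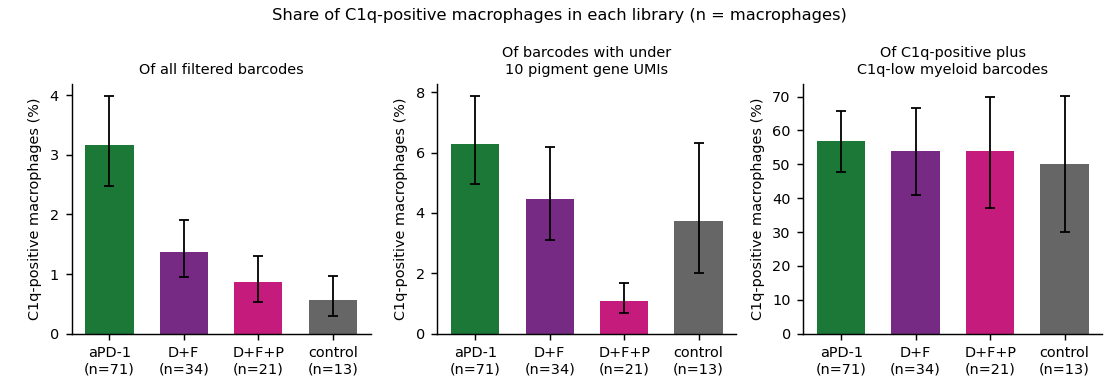
C1q-positive macrophages as a percentage of 3 denominators (y axes) in the aPD-1, D+F, D+F+P and control libraries (x axes), with exact Clopper-Pearson 95% intervals as error bars. The aPD-1 library is highest of all filtered barcodes (3.17%), D+F+P is lowest among barcodes with few pigment UMIs (1.10%), and the share of the 2 myeloid classes lies between 50% and 56.8% in all 4.

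The libraries differed little in the balance of macrophages and other monocytic barcodes. A C1q-low myeloid class was defined by the same filter and exclusions with under 5 C1q UMIs, at least 5 UMIs of Lyz2, at least 1 UMI of Csf1r, Ccr2 or Ly6c2 and under 10 UMIs of S100a8 and S100a9. It held 54, 29, 18 and 13 barcodes in the aPD-1, D+F, D+F+P and control libraries. Macrophages were 56.8%, 54.0%, 53.8% and 50% of the 2 classes together in these libraries, and each interval contained the other 3 values.

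Each library held both classes, so the difference between C1q-positive macrophages and C1q-low myeloid barcodes could be tested over 4 libraries. The UMI sums of each class in each library were tested with edgeR's quasi-likelihood test, with the library as a block and Benjamini-Hochberg adjustment over all genes tested. Of 1345 genes, 163 rose in the macrophages (12.1%) and 193 fell (14.3%) at an adjusted p under 0.05. Genes that either class's rule used are left out of these counts. A gene could pass the low-count filter through either class alone, so counts over list members describe only those tested. Both classes were cut from the barcodes by marker thresholds, and the low class had to hold Lyz2 and a monocyte gene, so the p-values state how repeatable the difference was between these 2 classes. The number of calls depended on the libraries used. There were 81 higher and 96 lower without the aPD-1 library, 91 and 108 without D+F, 197 and 262 without D+F+P, and 186 and 241 without control.

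Chemokine genes were among the largest differences. Ccl8, a CC chemokine, stood at 2581, 3504, 2987 and 1877 CPM in aPD-1, D+F, D+F+P and control macrophages, against 0 UMIs in the C1q-low barcodes of every library. Over the 4 libraries that is at least 444-fold higher, taking the floor of 3 UMIs for the whole low class (edgeR adjusted p = 2.66e-07). Ccl8 was therefore found in the macrophages of all 4 libraries and not detected in the C1q-low barcodes of any, although in the D+F+P library 1 cell held 79.3% of its UMIs.

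Ccl7, which attracts monocytes, stood at 2024, 3239, 1672 and 1299 CPM in aPD-1, D+F, D+F+P and control macrophages, against 328, 81.1, 230.3 and 19.4 CPM in the C1q-low barcodes (log2 fold change 3.57 ± 0.40 (SE), edgeR adjusted p = 5.56e-05). Ccl12, another monocyte attractant, stood at 364, 1112, 648 and 1524 CPM in the macrophages, against 43.7, 20.3, 115 and 252 CPM in the C1q-low barcodes of the same libraries (log2 fold change 3.18 ± 0.37, edgeR adjusted p = 6.28e-05). For both genes the lowest macrophage value exceeded the highest C1q-low value. Ccl2 (0.94 ± 0.16), Cxcl16 (2.13 ± 0.28) and Cxcl9 (1.67 ± 0.39), which encodes a ligand of Cxcr3, a chemokine receptor on T cells, also rose. Cxcl10, a second Cxcr3 ligand, fell, with 699.8, 745, 657 and 369 CPM in aPD-1, D+F, D+F+P and control macrophages and 2111, 2951, 2910.3 and 855 CPM in the C1q-low barcodes (log2 fold change -1.79 ± 0.20, edgeR adjusted p = 5.89e-05). Of 14 chemokine genes tested 6 rose, 1 fell and 7 did not pass, with a median log2 fold change of 0.76 against -0.00049 over all 1345 genes. Ccl2, Ccl7, Ccl12 and Ccl8 lie in 1 cluster on chromosome 11 of GRCm38, between 82035571 (Ccl2) and 82116799 (Ccl8).

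**Figure D2:**
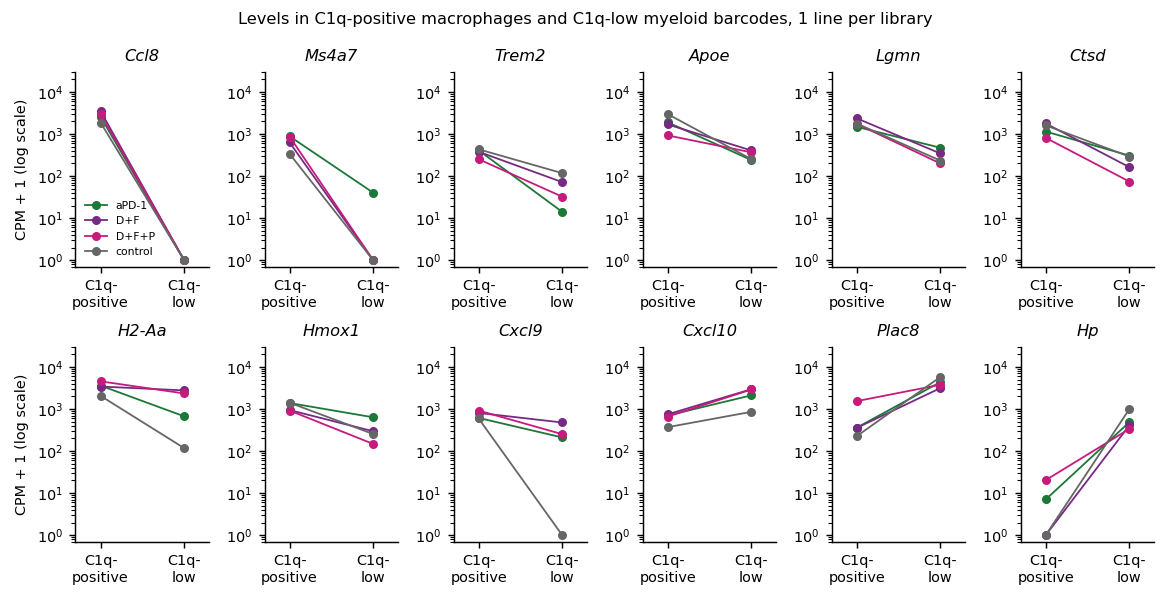
CPM plus 1 on a log axis (y) of 12 genes in C1q-positive macrophages (left) and C1q-low myeloid barcodes (right), with 1 line per library. All 4 lines are higher on the left for Ccl8, Ms4a7, Trem2, Apoe, Lgmn, Ctsd, H2-Aa, Hmox1 and Cxcl9, and higher on the right for Cxcl10, Plac8 and Hp.

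Surface and metabolic genes followed. Ms4a7 stood at 885, 631, 869.9 and 337 CPM in aPD-1, D+F, D+F+P and control macrophages, against 39.3, 0, 0 and 0 CPM in the C1q-low barcodes (log2 fold change 5.47 ± 0.47, edgeR adjusted p = 9.86e-06). Cd72, a lectin-like receptor best known from B cells, stood at 439, 403, 416 and 160.4 CPM in the macrophages and 4.37, 10.1, 0 and 38.8 CPM in the C1q-low barcodes (log2 fold change 5.34 ± 0.57, edgeR adjusted p = 3.90e-05). Slamf9, a receptor of the SLAM family, rose by 4.27 ± 0.42 (log2, SE). The other genes with the largest positive fold changes were Pltp (3.37 ± 0.42), which transfers phospholipids between lipoproteins, and Lpl (3.31 ± 0.37), which splits lipoprotein triglycerides. They were joined by Gatm (3.27 ± 0.49), the first enzyme of creatine synthesis, and Dab2 (3.08 ± 0.39), an adaptor of endocytosis. In each of these 10 genes the macrophages were higher in 4 of 4 libraries. Pltp overlaps Ctsa on the opposite strand of chromosome 2 (Pltp 164839518 to 164857711, Ctsa 164832873 to 164841032), and whether counting used strand is not given in the sources used here.

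Genes of lipid handling and the lysosome rose together. Of 14 genes tested of the lipid-associated macrophage list 9 rose and none fell (median log2 fold change 1.93). Apoe, an apolipoprotein that carries lipid out of the macrophage, stood at 1906, 1695, 928 and 2984 CPM in aPD-1, D+F, D+F+P and control macrophages, against 240.4, 406, 366 and 252 CPM in C1q-low barcodes (log2 fold change 2.45 ± 0.31, edgeR adjusted p = 1.52e-04). Trem2, a lipid-sensing receptor, stood at 409, 379, 251 and 433 CPM in the macrophages and 13.1, 71.0, 31.4 and 117 CPM in the C1q-low barcodes (3.05 ± 0.43, edgeR adjusted p = 3.13e-04). The groups did not overlap for either gene. The fatty acid binding protein Fabp5 (2.37 ± 0.26) and Gpnmb (1.39 ± 0.32), a lysosomal glycoprotein that melanoma cells also express, were among the others. Spp1, on the same list, did not pass (0.12 ± 0.60, edgeR adjusted p = 0.908).

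Of 19 lysosome genes tested 13 rose and none fell (median log2 fold change 0.99). The protease gene Lgmn stood at 1487, 2368, 1749.5 and 1781 CPM in aPD-1, D+F, D+F+P and control macrophages, against 472, 345, 199 and 233 CPM in the C1q-low barcodes (2.52 ± 0.25, edgeR adjusted p = 2.69e-05). Ctsd, encoding cathepsin D, stood at 1148, 1785, 812 and 1604 CPM in the macrophages and 306, 162, 73.3 and 291 CPM in the C1q-low barcodes (2.69 ± 0.27, edgeR adjusted p = 3.00e-05). Both genes were higher in the macrophages of all 4 libraries. Ctsb (1.49 ± 0.19), Grn (1.51 ± 0.19), Lamp1 (1.06 ± 0.36), Hexa (0.99 ± 0.25) and Ctsa (0.68 ± 0.23) were smaller members of the same group. Ctsd, Lgmn, Ctsb and Cd63 are counted on both the lysosome and the lipid list.

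Promoters were read for the lysosome genes because they rose as a group. The letters CACGTG, the core of the E-box bound by lysosomal regulators such as Tfeb, were searched on both strands of the 250 bases before the annotated start (RefSeq, GRCm38.p6). Of 13 lysosome genes that rose 11 had a listed promoter, and 4 of these, Ctsd, Lgmn, Lamp1 and Ctsa, held the letters, in at least 1 listed promoter, against 6.86% of all 27025 genes counted the same way. Lgmn and Ctsa have 2 listed promoters each, and their matches lie before an alternative start inside the annotated gene, not before its outermost start. The Ctsd stretch also runs into the annotated gene, whose outermost start is at 142388038. Only the first Ctsd match lies before that start. The stretches of Ctsd (chr7:142387828-142388077, minus strand) and Lamp1 (chr8:13158911-13159160, plus strand), which hold 2 and 4 matches, are printed 5′ to 3′ with the matches in capitals.
Ctsd: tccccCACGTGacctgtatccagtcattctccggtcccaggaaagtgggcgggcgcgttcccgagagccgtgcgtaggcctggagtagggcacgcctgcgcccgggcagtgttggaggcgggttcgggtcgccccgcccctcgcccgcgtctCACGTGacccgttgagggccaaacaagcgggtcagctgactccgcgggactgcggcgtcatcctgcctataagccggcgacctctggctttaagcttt
Lamp1: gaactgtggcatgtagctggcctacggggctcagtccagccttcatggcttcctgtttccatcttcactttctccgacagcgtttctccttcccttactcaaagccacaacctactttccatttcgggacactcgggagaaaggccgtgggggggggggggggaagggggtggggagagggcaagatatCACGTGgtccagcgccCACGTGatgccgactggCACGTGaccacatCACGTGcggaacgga
A match is a description of these letters and does not show binding.

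Genes of MHC class II, through which CD4 T cells are shown peptides, were also higher. H2-Aa stood at 3596, 3419.6, 4543 and 2053 CPM in aPD-1, D+F, D+F+P and control macrophages, against 669, 2769, 2345 and 117 CPM in the C1q-low barcodes (log2 fold change 1.62 ± 0.42, edgeR adjusted p = 0.0133). H2-Eb1 stood at 3014, 3035, 3741 and 2085 CPM in the macrophages and 441, 1846, 1685 and 77.7 CPM in the C1q-low barcodes (1.93 ± 0.43, edgeR adjusted p = 0.00575). The gap was wide in the aPD-1 and control libraries and narrower in the 2 libraries with doxorubicin and fasudil, where C1q-low barcodes held more of both genes. H2-Ab1 (1.52 ± 0.34) and the invariant chain Cd74 (0.89 ± 0.20) rose too, so 4 of 6 genes tested rose and none fell (median 1.20). Of 16 MHC class I and peptide loading genes 2 rose, H2-K1 (0.72 ± 0.20) and H2-Q6 (1.68 ± 0.37), and none fell. That is near the 12.1% of all 1345 genes that rose, so it is no result about class I genes as a list. H2-Q6 has near-identical neighbours, so its counts are uncertain.

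The Y box of MHC class II promoters, CTGATTGG, was searched the same way. It was found in both of the 2 rising class II genes with a listed promoter, H2-Aa and H2-Eb1, against 4.43% of all genes; neither motif contains the other. The stretches of H2-Aa (chr17:34287824-34288073, minus strand) and H2-Eb1 (chr17:34305617-34305866, plus strand) show the match in capitals.
H2-Aa: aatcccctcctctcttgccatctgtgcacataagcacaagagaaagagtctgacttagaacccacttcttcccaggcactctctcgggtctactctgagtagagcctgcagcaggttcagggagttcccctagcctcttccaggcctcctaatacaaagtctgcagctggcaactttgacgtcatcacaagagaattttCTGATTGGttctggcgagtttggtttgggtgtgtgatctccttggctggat
H2-Eb1: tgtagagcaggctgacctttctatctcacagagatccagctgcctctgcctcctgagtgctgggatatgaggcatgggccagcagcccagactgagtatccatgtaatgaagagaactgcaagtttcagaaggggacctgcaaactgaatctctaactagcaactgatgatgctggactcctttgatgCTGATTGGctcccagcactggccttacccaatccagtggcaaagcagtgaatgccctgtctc

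Haem and iron genes were higher as well. Hmox1, which degrades haem, stood at 1388, 944, 918 and 1412 CPM in aPD-1, D+F, D+F+P and control macrophages, against 634, 294, 147 and 252 CPM in the C1q-low barcodes (1.85 ± 0.25, edgeR adjusted p = 2.73e-04). Blvrb (2.48 ± 0.26), which acts on biliverdin, Prdx1 (1.44 ± 0.20), Gclm (0.84 ± 0.28) and the ferritin genes Ftl1 (1.17 ± 0.16) and Fth1 (0.62 ± 0.16) were the other members, 6 of 7 tested having risen and none fallen. Among genes of phagocytosis and efferocytosis 3 of 8 rose and none fell. They were Axl (2.77 ± 0.43), a receptor for dying cells, Sirpa (1.28 ± 0.27), the receptor of the don't-eat-me signal Cd47, and Calr (0.64 ± 0.20). The Fc receptor gene Fcgr4 (2.56 ± 0.36) and the complement receptor gene C3ar1 (2.03 ± 0.41) rose, while C3 (-1.31 ± 0.26) fell.

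Monocyte genes were lower in the macrophages. Of 15 listed genes 9 were tested, leaving out Ly6c2 and Ccr2 that the low class was chosen on. Of these 8 fell and none rose (median log2 fold change -2.28). A gene such as Hp was tested through the C1q-low class alone, so the count only describes the classes as they were cut. Hp, encoding haptoglobin, stood at 6.06, 0, 19.3 and 0 CPM in aPD-1, D+F, D+F+P and control macrophages, against 485, 406, 335 and 991 CPM in the C1q-low barcodes (-6.12 ± 0.49, edgeR adjusted p = 4.61e-06). Plac8 stood at 357, 355, 1537 and 225 CPM in the macrophages and 4353, 3134, 3769 and 5768 CPM in the C1q-low barcodes (-3.08 ± 0.39, edgeR adjusted p = 1.43e-04). The D+F+P macrophages had the highest Plac8 of the 4, yet still less than any C1q-low class. The other large negative fold changes were Ifitm6 (-5.86 ± 0.46), the chitinase-like Chil3 (-4.69 ± 0.48), the protease inhibitor Slpi (-4.07 ± 0.32) and the aspartic protease Napsa (-3.86 ± 0.40). They continued with Gm9733 (-3.17 ± 0.44), the actin-binding Lsp1 (-2.85 ± 0.27), Cytip (-2.78 ± 0.32) and the calcium-binding S100a4 (-2.52 ± 0.37). All 10 genes were lower in 4 of 4 libraries.

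Interferon gamma response genes were mixed between the classes. Of 16 tested, Cxcl9 and Serpina3g rose and Cxcl10, Irf1, Socs1, Gbp2, Irgm1 and Gbp3 fell. Irf1, a transcription factor that interferon gamma induces, stood at 339, 373, 338 and 64.2 CPM in aPD-1, D+F, D+F+P and control macrophages, against 944, 1329, 827 and 544 CPM in the C1q-low barcodes (-1.72 ± 0.24, edgeR adjusted p = 2.94e-04). The control library was lowest in both classes. Of 13 type I interferon genes 1 rose, Bst2 (1.10 ± 0.25), and none fell. Of 13 inflammatory cytokine and NF-kB genes none rose and 2 fell, Nfkbia (-1.25 ± 0.20) and Icam1 (-1.29 ± 0.27). The M1-associated list had 1 gene higher and 3 lower of 10 tested and the M2-associated list 0 higher and 1 lower of 4, so neither list moved as a whole. Of 14 actomyosin genes Pfn1 (0.52 ± 0.16) rose and Actg1, Msn and Flna fell. Of all 1345 genes 12.1% rose and 14.3% fell. Against those shares the type I interferon, inflammatory and actomyosin counts are too small to read as results about the lists.

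**Figure D3:**
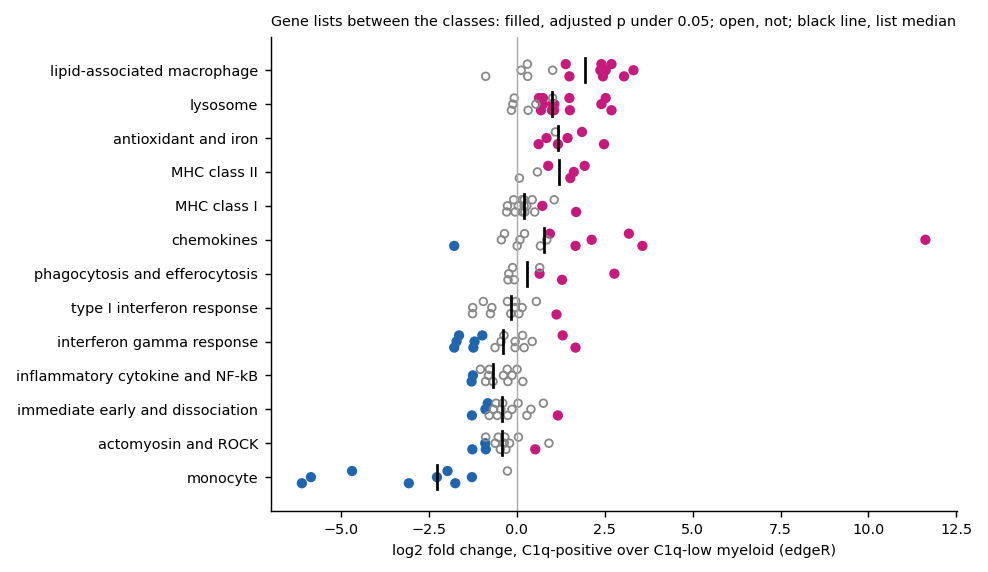
Log2 fold change of each tested list member (x axis, C1q-positive over C1q-low myeloid, edgeR) for 13 gene lists (y axis). Filled points passed an adjusted p of 0.05, open points did not, and black lines are list medians: the lipid-associated (1.93), lysosome (0.99) and MHC class II (1.20) medians lie right of 0 and the monocyte median (-2.28) lies far left of it.

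Macrophages within a library were not uniform. Arg1, an enzyme of arginine breakdown, had a UMI in 24 of 139 macrophages, and Cxcl9 in 59. Both were found in 5 cells. In the thinned cells Arg1 was found in 11.8% of 127 (6.76 to 18.7%), against 0.0708% of lymphocyte barcodes, and Cxcl9 in 28.3% (20.7 to 37.0%), against 0 of 1413 lymphocyte barcodes (unthinned, 17.3% and 42.4% of macrophages, against 0.188% and 0.565% of lymphocyte barcodes). Spp1 had a UMI in 38 macrophages, 15 of which also held Arg1. In thinned cells Spp1 was found in 15.0% of macrophages and in 9.84% of lymphocyte barcodes (unthinned, 27.3% and 23.3%), so single Spp1 UMIs are near background.

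MHC class II levels varied between cells and between libraries. The class II list took a median of 1.38% of a cell's UMIs in aPD-1, 1.32% in D+F, 2.74% in D+F+P and 0.332% in control macrophages. Cells ranged between 0 and 9.12% in aPD-1, 0.0263 and 9.03% in D+F, 0.0559 and 7.90% in D+F+P, and 0 and 6.29% in control, so the libraries overlapped. In cells thinned to 1000 UMIs, H2-Aa was found in 49 of 64 aPD-1, 27 of 32 D+F, 19 of 20 D+F+P and 3 of 11 control macrophages, and in 3.18% of lymphocyte barcodes over the 4 libraries (unthinned, 84.9% of macrophages and 9.74% of lymphocyte barcodes). The lysosome list had medians of 2.25%, 3.16%, 2.35% and 2.28% in aPD-1, D+F, D+F+P and control macrophages, and the lipid-associated list 1.65%, 1.86%, 1.16% and 1.68%.

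**Figure D4:**
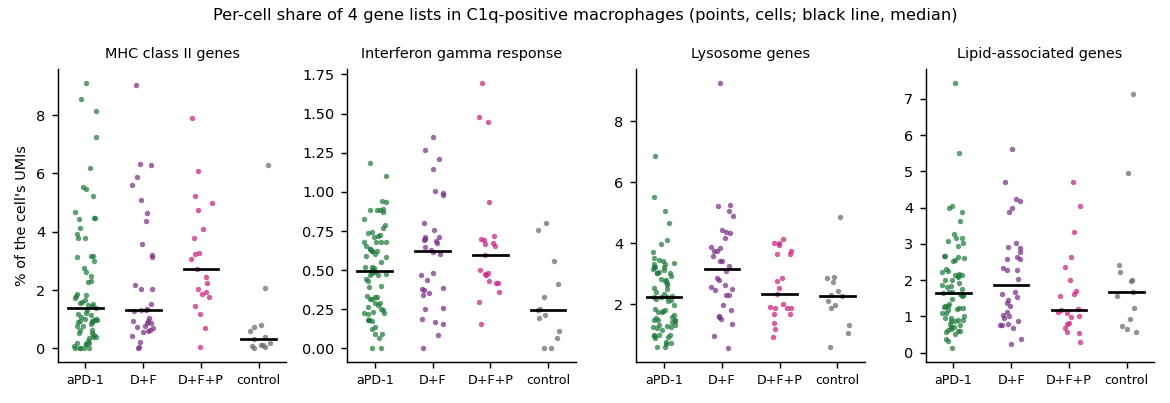
Percentage of each macrophage's UMIs (y axes) that came from the MHC class II, interferon gamma response, lysosome and lipid-associated lists in the aPD-1, D+F, D+F+P and control libraries (x axes); points are cells and black lines medians. The control cells lie low for MHC class II (median 0.332%), apart from 1 cell at 6.29%, and D+F+P cells have the highest median (2.74%).

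Each treated library was then set against control, on genes with 50 or more UMIs in the pair. Counts are of genes at least 1.5-fold apart, with no test, and all 3 comparisons share the 13 control cells. A gene can reach 50 UMIs through the deeper library alone, so counts over list members describe only those that passed. The aPD-1 macrophages had 18.6% of 1054 genes higher and 10.4% lower than control. The D+F macrophages had 16.4% of 648 genes higher and 9.26% lower, and the D+F+P macrophages 20.1% of 503 higher and 11.1% lower. Log2 ratios are followed by their counting intervals, and the median over all genes was 0.07, 0.11 and 0.14 in aPD-1, D+F, then D+F+P. Scaling by the median of ratios moved the higher share of these genes from 64.1% to 55.8% in aPD-1, from 63.9% to 47.9% in D+F and from 64.3% to 48.3% in D+F+P, so changes near the median have no firm direction.

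Interferon gamma response genes were higher in each treated library than in control. Irf1 stood at 339, 373, 338 and 64.2 CPM in aPD-1, D+F, D+F+P and control macrophages, with a log2 ratio of 2.40 (1.01 to 4.30) for aPD-1 over control. Gbp2, a GTPase that interferon gamma induces, stood at 230.2, 343, 725 and 48.1 CPM, with a log2 ratio of 2.83 (1.21 to 5.15) for D+F over control. The control values rest on 4 UMIs of Irf1 and 3 of Gbp2. Few of the 25 listed genes reached 50 UMIs, and some did so through the treated library alone, so no count over them is given. The whole list, with no filter, summed to 5362, 5781, 6776 and 2904 CPM in aPD-1, D+F, D+F+P and control macrophages, and to 7368, 10284, 9014 and 4020.4 CPM in the C1q-low barcodes, so control was lowest in both classes. It was also lowest in control in melanoma barcodes, at 3850.0, 3743, 5052 and 2690.0 CPM, but not in lymphocyte barcodes, at 2711, 2805, 2695 and 2731 CPM in the same order. In thinned cells the Gbp2 ratio of D+F over control was 1.04. Cxcl9 itself was less uneven, at 612, 805, 918 and 594 CPM in aPD-1, D+F, D+F+P and control. Ifi47 and Rtp4, both induced by interferons, were among the 8 highest genes of aPD-1 over control, with log2 ratios of 3.35 (0.81 to 8.68) and 2.18 (0.78 to 4.09).

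Antigen presentation genes were higher as well. Cd74 stood at 11979, 12194, 14682 and 6609 CPM in aPD-1, D+F, D+F+P and control macrophages, with a log2 ratio of 1.15 (0.99 to 1.31) for D+F+P over control. H2-Aa had log2 ratios of 0.81 (0.54 to 1.08) in aPD-1, 0.74 (0.46 to 1.02) in D+F and 1.15 (0.86 to 1.44) in D+F+P over control. A single control cell held 84.4% of the control UMIs of H2-Aa and 66.7% of those of Cd74. Leaving out the highest cell of each gene in every library raised the H2-Aa ratios to 2.85, 2.80 and 3.40 in aPD-1, D+F, then D+F+P. Of 6 class II genes with enough UMIs 3, 4 and 5 were at least 1.5-fold higher in aPD-1, D+F, then D+F+P than in control, and none was lower. Control was not lowest in the macrophages alone. The class II list stood at 6201, 15892, 16918 and 4525 CPM in C1q-low barcodes of aPD-1, D+F, D+F+P and control. In melanoma barcodes it stood at 3561, 2433, 5256 and 1142 CPM in the same order. In lymphocyte barcodes it was lowest in D+F+P, at 327, 419, 246 and 328 CPM. Of MHC class I and loading genes 10 of 15 in aPD-1, 4 of 11 in D+F and 7 of 9 in D+F+P were higher. These counts cover only genes with enough UMIs, and some had them through the treated library alone, so they cannot show a list-wide rise. The whole list, with no filter, summed to 13569, 12807, 15166 and 8775 CPM in aPD-1, D+F, D+F+P and control macrophages. B2m, the light chain of class I, stood at 3159.8, 2710.4, 3557 and 1957 CPM in aPD-1, D+F, D+F+P and control.

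Other genes higher than control had varied roles. Ly86, which partners a Toll-like receptor homologue, stood at 536, 793, 715 and 257 CPM in aPD-1, D+F, D+F+P and control macrophages, with log2 ratios of 1.63 (0.87 to 2.48) for D+F and 1.48 (0.69 to 2.36) for D+F+P over control. Tmsb10, an actin-binding thymosin, stood at 5805, 6418, 8003 and 2855 CPM in the same order, with a log2 ratio of 1.49 (1.25 to 1.73) for D+F+P over control. Melanoma barcodes held more Tmsb10 than macrophages in every library and were also lowest in control, at 24123, 22923, 26674 and 15904 CPM in aPD-1, D+F, D+F+P and control; its part in the macrophage values was not tested. Ccl7 (1.32, 0.98 to 1.67), the phospholipase D family member Pld4 (1.64, 0.87 to 2.52), Ly6a (1.26, 0.88 to 1.66), Itm2b (1.07, 0.76 to 1.39) and AW112010 (1.48, 0.95 to 2.05) were higher in D+F than in control. In aPD-1 the metallothionein gene Mt1 (1.21, 0.76 to 1.69), the sodium pump subunit gene Atp1b3 (1.72, 0.76 to 2.88), Selenom (2.77, 0.86 to 5.84), H2-Q7 (2.27, 0.87 to 4.17), another gene with near-identical copies, and Ms4a7 (1.39, 0.75 to 2.11) were higher than in control.

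Cxcl2, Il1b, Spp1 and Apoe were lower than in control, but the inflammatory genes were not lower as a group. The inflammatory cytokine and NF-kB list summed to 5647, 5553, 5219.6 and 5968 CPM in aPD-1, D+F, D+F+P and control macrophages. Tnf was higher than in control, with log2 ratios of 1.09 (0.20 to 2.13) in aPD-1, 1.37 (0.45 to 2.43) in D+F and 1.24 (0.26 to 2.34) in D+F+P, the last with 51.9% of the pair's UMIs in 1 cell and a ratio of -0.033 without the highest cell of each library. Cxcl2, a neutrophil-attracting chemokine, stood at 3499, 2578, 2059 and 7267 CPM in aPD-1, D+F, D+F+P and control macrophages, with log2 ratios of -1.05 (-1.21 to -0.89), -1.50 (-1.69 to -1.30) and -1.82 (-2.06 to -1.58) for aPD-1, D+F, then D+F+P over control. Il1b stood at 545, 409, 648 and 1700.5 CPM in the same libraries, with its control UMIs in 4 cells and a log2 ratio of -1.64 (-1.99 to -1.28) for aPD-1 over control. Spp1, encoding the secreted protein osteopontin, stood at 457, 126, 87.0 and 1797 CPM, and the control library was highest for all 3 genes. Lymphocyte barcodes held 356, 240.3, 239 and 304 CPM of Spp1 in aPD-1, D+F, D+F+P and control, which is above the D+F and D+F+P macrophages, so the levels there are read as background. Apoe stood at 1906, 1695, 928 and 2984 CPM in aPD-1, D+F, D+F+P and control, with a log2 ratio of -0.82 (-1.09 to -0.54) for D+F over control. Weighting each cell equally took the Apoe ratio of aPD-1 over control to 0.022, against -0.65 from summed UMIs, and that of D+F over control to -0.16. Of the lipid-associated list 6 of 13 genes were at least 1.5-fold lower in aPD-1, 5 of 13 in D+F and 7 of 12 in D+F+P than in control, and 1, 2 and 0 were higher. One of the 13 control cells held 40.8% of the control UMIs of this list, against a highest cell of 5.68%, 11.9% and 21.1% in aPD-1, D+F, then D+F+P. The per-cell medians given above, 1.65%, 1.86% and 1.16% in aPD-1, D+F, then D+F+P and 1.68% in control, did not put aPD-1 or D+F clearly below control. With each cell weighted equally the list's median log2 ratio was -0.022 in aPD-1, -0.16 in D+F and -0.61 in D+F+P over control.

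Single genes of the cytoskeleton and cell surface were lower too. Myh9, the heavy chain of the non-muscle myosin that ROCK activates, stood at 224, 331, 203 and 706 CPM in aPD-1, D+F, D+F+P and control macrophages, with log2 ratios of -1.65 (-2.21 to -1.08) for aPD-1 and -1.80 (-2.62 to -1.02) for D+F+P over control. All 3 treated libraries had less Myh9 than the same 13 control cells, and the part of ROCK inhibition was not tested. Over the actomyosin list none was higher and 3 of 14, 1 of 11 and 2 of 10 genes were lower in aPD-1, D+F, then D+F+P than in control. The lower shares over all genes were 10.4%, 9.26% and 11.1%, and counts this small cannot show whether the list shifted. Cd81, a tetraspanin, had log2 ratios of -1.51 (-2.01 to -0.99) in aPD-1 and -1.95 (-2.60 to -1.31) in D+F over control. Tgfbi (-1.32, -1.65 to -0.98), Wfdc17 (-1.42, -1.69 to -1.14) and Hnrnpa3 (-1.27, -1.74 to -0.78) were lower in aPD-1 than in control, and Cd14 (-1.24, -1.84 to -0.62), Socs3 (-1.12, -1.64 to -0.58) and S100a6 (-1.33, -1.74 to -0.93) in D+F. Ccl3 (-1.89, -2.81 to -1.03), Gpx1 (-1.04, -1.40 to -0.67), Lars2 (-1.33, -1.73 to -0.94), AY036118 (-1.21, -1.62 to -0.81) and Ptma (-0.999, -1.32 to -0.68) were lower in D+F+P than in control. The AY036118 ratio turned to 0.094 in thinned cells.

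**Figure D5:**
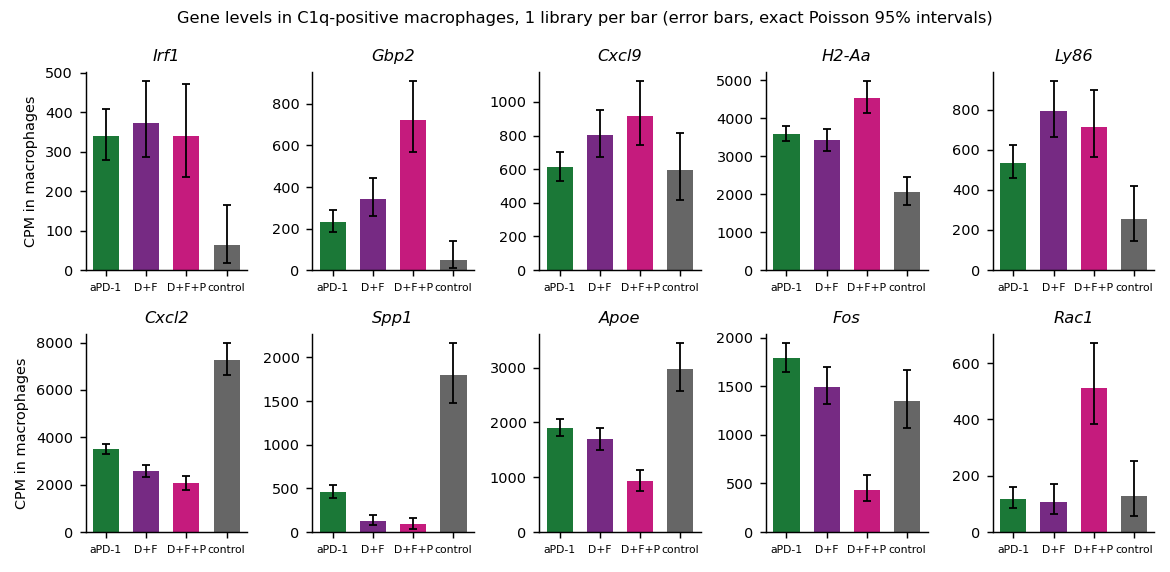
CPM of 10 genes (y axes, from 0) in the macrophages of the aPD-1, D+F, D+F+P and control libraries (x axes), with exact Poisson 95% intervals as error bars. Irf1, Gbp2, H2-Aa and Ly86 are lowest in control, Cxcl2, Spp1 and Apoe are highest there, and Fos is lowest and Rac1 highest in D+F+P.

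Adding the PD-1 antibody to doxorubicin and fasudil is the comparison of D+F+P with D+F. It had 9.96% of 763 genes higher and 11.8% lower, and D+F+P against aPD-1 had 12.7% of 1162 genes higher and 14.6% lower. Both comparisons share the 21 D+F+P cells. Of these, 4 had 50 or more C1q UMIs and 6 had 5 to 9. In D+F these numbers were 18 and 2 of 34, and in aPD-1 34 and 10 of 71. The monocyte list summed to 1445, 1172, 4108 and 1893 CPM in aPD-1, D+F, D+F+P and control macrophages, with 36.9% of the D+F+P UMIs in 1 cell. The macrophages compared thus differed in make-up, and its part in the ratios was not tested. Immediate early genes, which respond within minutes to stimuli and to tissue dissociation, were lower in D+F+P. Fos stood at 435 CPM in D+F+P macrophages, against 1790.4 CPM in aPD-1, 1496 CPM in D+F and 1348 CPM in control. Its log2 ratio was -1.78 (-2.27 to -1.32) against D+F and -2.04 (-2.51 to -1.60) against aPD-1. In thinned cells the Fos ratio against D+F was -0.69. Junb had log2 ratios of -1.33 (-1.75 to -0.93) against D+F, -1.61 (-1.999 to -1.24) against aPD-1 and -1.05 (-1.54 to -0.56) against control. Of the listed immediate early genes 5 of 10 were at least 1.5-fold lower in D+F+P than in D+F, and 11 of 16 lower than in aPD-1, while 1 was higher in each comparison. The whole list was also lowest in D+F+P in C1q-low barcodes, at 11507, 13184, 10322 and 15635 CPM in aPD-1, D+F, D+F+P and control. So it was in lymphocyte barcodes (3864, 4366, 3685 and 4953 CPM), but melanoma barcodes were highest in D+F+P (2289, 2535, 2873 and 2256 CPM). The time between tumour removal and capture is not in the labels, and its part in the lower levels was not tested.

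Chemokine genes showed a similar picture. Ccl2 stood at 1489 CPM in D+F+P macrophages, against 3636 CPM in D+F, with a log2 ratio of -1.29 (-1.55 to -1.03). Ccl4 stood at 1092 CPM in D+F+P, against 3148 CPM in aPD-1, with a log2 ratio of -1.53 (-1.82 to -1.25), and Pf4 had -2.34 (-3.42 to -1.42). Of 15 chemokine genes 7 were at least 1.5-fold lower in D+F+P than in D+F and 7 lower than in aPD-1, with 0 and 3 higher. The chemokine list was also lowest in D+F+P in C1q-low barcodes, at 12363, 21825, 8501 and 20937 CPM in aPD-1, D+F, D+F+P and control. It was highest in D+F+P in lymphocyte barcodes (6800, 4333, 6897 and 2598 CPM) and in melanoma barcodes (1272, 1397, 1978 and 1177 CPM). Of the lipid-associated list 7 of 13 genes were lower in D+F+P than in D+F and none higher, and 6 of 14 were lower than in aPD-1 and 1 higher. The higher one was Fabp5, at 1.04 (0.76 to 1.32). Lipa, the lysosomal acid lipase, had a log2 ratio of -2.22 (-3.74 to -0.99) against D+F.

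Genes higher in D+F+P included some that were high throughout that library. Rac1, a GTPase of membrane ruffling and phagocytosis, stood at 512 CPM in D+F+P macrophages, against 118 CPM in aPD-1, 108 CPM in D+F and 128 CPM in control (log2 ratio 2.24, 1.45 to 3.103, against D+F). Lymphocyte barcodes of the D+F+P library held 410.5 CPM and its melanoma barcodes 291 CPM of Rac1, against at most 124 and 121 CPM in the other libraries. The same held for Jund (1.43, 0.69 to 2.21, against D+F) and Pnrc1 (1.53, 0.67 to 2.42), whose lymphocyte and melanoma levels were also highest in D+F+P. The higher level of these 3 genes was thus not limited to the macrophages. S100a6 (1.32, 0.97 to 1.69, against D+F) had its lowest macrophage level in D+F, at 2429.7, 649, 1624 and 1636 CPM in aPD-1, D+F, D+F+P and control.

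Naaa and Fcgr2b, also higher in D+F+P, were nearly absent from lymphocyte and melanoma barcodes. Naaa, a lysosomal amidase, stood at 445 CPM in D+F+P macrophages, against 78.8 CPM in aPD-1, 204 CPM in D+F and 128 CPM in control (log2 ratio 2.50, 1.77 to 3.25, against aPD-1). The dendritic cell list, which holds Naaa, summed to 218, 331, 532 and 160.4 CPM in aPD-1, D+F, D+F+P and control macrophages. In C1q-low barcodes the list summed to 144, 264, 701 and 58.3 CPM in the same order, so D+F+P was highest in both classes. Naaa gave 26 of the list's 72, 34 of its 55, 46 of its 55 and 8 of its 10 UMIs in the macrophages. Batf3 gave 28, 17, 7 and 1. Clec9a had 4, 0, 2 and 0 UMIs and Xcr1 had 6, 2, 0 and 0 in the same order, while Flt3, Kit and Itgae had none. The part of dendritic cells in the class II levels was not tested. Fcgr2b, the inhibitory Fc receptor, stood at 512 CPM in D+F+P, against 145 CPM in aPD-1 (log2 ratio 1.82, 1.23 to 2.41). Gbp2 had a log2 ratio of 1.65 (1.17 to 2.13) against aPD-1, and Sh3glb1 2.02 (0.86 to 3.41) against control; both were also highest in the melanoma barcodes of the D+F+P library.

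Genes that bear on the agents themselves were checked. Cdkn1a, the p53 target that doxorubicin induces in many cells, stood at 612, 775, 793 and 658 CPM in aPD-1, D+F, D+F+P and control macrophages, and its 4 values lay close together. Its log2 ratios over control were 0.24 (-0.28 to 0.78) in D+F and 0.27 (-0.29 to 0.85) in D+F+P. The p53 targets Bax, at 0.68 (-0.29 to 1.77), and Gdf15, at 0.31 (-0.38 to 1.05), also had intervals that included 0 in D+F over control. Mki67, a marker of cycling cells, had 6, 11, 4 and 8 UMIs in aPD-1, D+F, D+F+P and control, found in 13 of 139 macrophages. These are raw counts from unequal UMI totals. The proliferation list summed to 639, 986, 590 and 1909 CPM in the same order. A single cell held 9.48%, 29.9%, 60.7% and 42.0% of its UMIs. Pdcd1, the gene of PD-1 itself, had 0 UMIs in the macrophages, while Cd274, the gene of its ligand PD-L1, stood at 282, 276, 358 and 96.3 CPM in aPD-1, D+F, D+F+P and control. The matrix and remodelling list summed to 3490.0, 2963, 2803 and 8326 CPM in aPD-1, D+F, D+F+P and control macrophages. Its median log2 ratio over control was -0.91 in aPD-1, -1.52 in D+F and -1.75 in D+F+P. Without the 3 cells that held fibroblast genes it was -1.10 in aPD-1 and -0.72 in D+F, and too few genes passed in D+F+P. Tgfbi, the largest member, had -1.33 in aPD-1 over control without those cells. The list had a median log2 ratio of -1.68 in D+F+P over aPD-1, which became 0.091 without the 3 cells that held fibroblast genes.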

How the data were processed

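Single-cell RNA from 4 unsorted B16F10 tumour libraries (1 per group) was analysed. The authors deposited raw UMI counts (whole numbers, 31053 genes by barcode, per the file headers) without normalization. Per the submitters' processing notes, the authors used Cell Ranger 3.1.0 with GRCm38 (mm10); the annotation release and later filters are not given in the sources used here. The receptor contig tables were not analysed here.

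Members were chosen by the thresholds given above, and members and gene lists were chosen with earlier results of these data known. CPM were computed from UMIs summed over each class of a library. Ratios carry exact conditional binomial intervals, shares exact Clopper-Pearson intervals and levels exact Poisson intervals, all at 95% and for counting error only; PCR duplicates are collapsed by UMI. The 34 lists hold 492 genes, 2 of which (Cxcl11 and Mx2) were not matched in the files. A gene counted as apart at 1.5-fold, with at least 50 UMIs in the pair. Classes were compared with edgeR 4.0.16 (R 4.3.3; TMM, filterByExpr, library as a block), and DESeq2 1.42.0 as an alternative. Both statistics were tested on simulated data. Python 3.11.15, numpy 2.4.6, scipy 1.17.1, pandas 2.3.3, scanpy 1.11.5 and matplotlib 3.10.9 were used.

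Genes named between libraries were, against control, the top 8 by lower interval bound and the bottom 8 by upper bound, and likewise 4 per direction when D+F+P was set against D+F or aPD-1. They needed detection in 25% of the cells of the higher library, at most 20% of UMIs in 1 cell, and at least 25% of the level in lymphocyte and melanoma barcodes. A list of genes of interest and the extremes of each list (up to 4 per end) could also be named. Between classes, the 10 largest fold changes each way were named among called genes of the same sign in 4 libraries and a mean of 50 CPM. Lymphocyte barcodes held at least 2 Cd3 UMIs, under 10 pigment UMIs; melanoma barcodes held at least 10 pigment UMIs and no Cd3. Neither held C1q.

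Scrublet marked 46 of 9461 barcodes (0.486%) and none of the macrophages, a rate too low to count as working, so no doublets were removed. The C1q and pigment thresholds, cell filter, ribosomal filter, denominators, depth, scaling, cell weights, low-value filters, test tool, block and libraries were varied.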

Additional observations from a re-analysis of the deposited data

How the results depend on the processing

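Each group has 1 library and so no replicate. Control values rest on 13 cells and 62336 UMIs, and single cells can set them. No paired analysis between treatment groups was possible because of this and because the labels number no replicates; the class test used the library as a block, and 146 genes higher and 178 lower were called without it. Cells from a second cell type were left out as an alternative chosen after seeing the data.

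Of the 20 genes named between the classes none lost its call or changed direction under any alternative run (215 values), and 127 of 356 called genes were called in the same direction under every one. Counts of calls moved more: DESeq2 called 92 higher and 127 lower, and no low-count filter 307 and 306. Leaving out 1 library in turn gave between 81 and 197 genes higher and between 96 and 262 lower.

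Shares among barcodes with under 10 pigment UMIs were 6.29%, 4.46% and 3.74% in aPD-1, D+F and control, and the D+F+P share was 1.37% of barcodes under a stricter filter (1000 UMIs or more, mitochondrial share up to 10%). Genes at least 1.5-fold apart numbered 306 in aPD-1, 166 in D+F and 157 in D+F+P against control, 166 for D+F+P against D+F, plus 317 when D+F+P was set against aPD-1. Thinned cells gave 81, 48, 35, 43 and 65 in these comparisons, a minimum of 20 UMIs gave 1004, 573, 480, 592 and 972, and a minimum of 100 UMIs gave 131, 72, 67, 65 and 115; fewer or more genes were then tested.

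Directions turned in 31 of 3128 values, and the cause was not tested. Thinning gave log2 ratios of 0.63 (Fcgr2b) and 0.71 (Sirpa) in aPD-1 over control. In D+F+P over control it gave 0.094 (AY036118), -0.86 (Arg1), 0.29 (Ccl5) and -0.94 (Ccl8). In D+F+P it gave -0.13 (Arg1) and -0.20 (Ms4a7) over D+F and -1.27 (Ccl8) over aPD-1. Equal weight per cell gave 0.022 (Apoe) and -0.066 (Ccl5) in aPD-1 over control. In D+F+P it gave 0.029 (AY036118), -0.19 (Ccl8) and -0.18 (Ms4a7) over control, -0.48 (Ms4a7) over D+F and -0.65 (Ccl8) over aPD-1. Without the highest cell of each gene, Ccl5 had 2.9999 in D+F and 3.31 in D+F+P over control. In D+F+P over control Ccl8 then had -1.24, Ms4a7 -0.13 and Tnf -0.033. Ms4a7 had -0.94 over D+F and Ccl8 -1.46 over aPD-1. At least 10 C1q UMIs gave Hmox1 0.44 in D+F and 0.54 in D+F+P over control, Tnf -0.29 in D+F+P over control, and Ccl8 0.038 in D+F+P over D+F. Under 3 pigment UMIs gave Ccl8 0.39 in D+F+P over D+F and the immediate early median 0.13 in D+F+P over control. The matrix median of D+F+P over aPD-1 was 0.18 at 100 UMIs and 0.091 without cells holding fibroblast markers. MHC class II medians over control moved from 0.63, 0.72 and 0.88 in aPD-1, D+F, then D+F+P to 1.81, 1.84 and 2.31 without the highest cell.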

Other observations

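Of 156 filtered barcodes with at least 5 C1q UMIs, 17 were no members: 4 held 10 or more pigment UMIs and 13 held a Cd3 UMI. The Cd3-positive ones were 9 of 82 in aPD-1 (10.98%), 1 of 35 in D+F (2.86%), 3 of 24 in D+F+P (12.5%) and 0 of 15 in control, which allows a share of up to 20%. Among all barcodes with 10 or more pigment UMIs, which should lack Cd3 as melanoma cells, 6.21%, 2.61%, 15.9% and 0.826% held a Cd3 UMI in aPD-1, D+F, D+F+P and control, at greater depth. The libraries thus kept nearly the same order in both classes.

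Cd72 and Slamf9 were the surface genes, beside Ms4a7, with the largest fold changes over C1q-low barcodes. Cd72 had 265 UMIs in the macrophages and 4 in the C1q-low barcodes, while the B cell genes Cd79a and Ms4a1 had 0 in the macrophages. Gdf15, a stress-induced cytokine, stood at 167, 457, 232 and 369 CPM in aPD-1, D+F, D+F+P and control macrophages, against 52.4, 40.6, 0 and 19.4 CPM in the C1q-low barcodes (log2 fold change 2.93 ± 0.46 (SE), edgeR adjusted p = 6.62e-04), and was higher in 4 of 4 libraries. Il10 had 33, 13, 2 and 1 UMIs in aPD-1, D+F, D+F+P and control macrophages, in 25 of 139 cells.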
